A study of Mus musculus with 24 samples.

Results

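The 44 genes described here act at the passage from G2 phase into mitosis, in the building of the spindle, in the separation of the chromosomes or in the division of the cell. They form a list of known mitotic genes listed by symbol, with no measured value in the rule, and all 44 were present among the 24411 genes counted in mouse liver RNA. RNA-seq read counts from 24 liver libraries were compared to follow the entry into and exit from mitosis after an overdose of acetaminophen (APAP) and to set livers lacking *E2f7* and *E2f8* against controls. All mice were males aged 2.5 months, carried loxP sites in *E2f7* and *E2f8* and an R26R mTmG reporter, and had been fasted overnight. Liver-specific knockout (LKO) mice carried Alb-Cre (Tg/0), in which the albumin promoter drives Cre recombinase in the liver for life, and their control littermates were Alb-Cre 0/0. LKO and control mice were on a mixed, predominantly FVB background and were E2f7/E2f8 loxP/loxP and R26R mTmG/mTmG. Hepatocyte-specific knockout (HKO) mice were injected as adults with AAV8-TBG-Cre, a virus in which a hepatocyte promoter drives Cre, and null mice were injected with AAV8-TBG-Null. At 0 h, without APAP, 4 control, 4 LKO, 3 null and 3 HKO mice were sequenced singly. After 300 mg/kg APAP by intraperitoneal injection, RNA of 3 mice was pooled into 1 control and 1 LKO library at each of 12, 24, 48, 72 and 96 h, so a single pool has no replicate and a difference between 2 pools has no test of its own.

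Entry into mitosis is driven by cyclin B bound to CDK1, which CDC25 phosphatases switch on and which Polo-like and Aurora kinases help along. Kinetochores then attach the chromosomes to the spindle while a checkpoint holds back the anaphase-promoting complex (APC/C), and once that complex has marked cyclin B and securin for destruction the chromosomes part and the cell divides in cytokinesis. Most of these genes are transcribed together late in the cell cycle, under MuvB complexes with B-MYB and FOXM1, which act at a promoter element called the cell cycle genes homology region (CHR), and under NF-Y, which binds CCAAT boxes. In the adult liver nearly all hepatocytes are out of the cycle, and after APAP has killed hepatocytes around the central veins the remaining cells divide to restore the organ. *E2f7* and *E2f8* encode repressors of cell cycle genes, and hepatocytes need them to become polyploid by mitosis without cytokinesis.

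Reads on genes numbered between 12665686 and 19499897 per library (median 16500385), and 3 counts were worth between 0.144 and 0.253 CPM (read counts per library size, scaled by the trimmed mean of M values). Levels below about this size rest on very few reads, and at 0 h 30 of the 44 genes averaged under 1 CPM in control mice and 27 did so in LKO mice. *E2f7* was close to this limit, at 0.118, 0.501, 0.337 and 0.369 CPM in the control mice and 0.207, 0.163, 0.230 and 0.220 CPM in the LKO mice. *E2f8* stood at 18.2, 26.3 and 14.8 CPM in null mice and at 53.1, 83.4 and 30.6 CPM in the mice labelled HKO, which lay above every null mouse. In the pools *E2f8* was at 13.6, 4.18, 4.86, 7.66 and 8.78 CPM in control and at 46.4, 14.7, 21.4, 16.7 and 16.6 CPM in LKO at 12, 24, 48, 72 and 96 h, so it was higher in every pool labelled LKO (log2 change 1.53 ± 0.21 (SE; adjusted p = 0.0236)). A count over the whole gene includes exons that Cre leaves in place, so these levels do not check the deletion, and genotypes are given as labelled. Summed levels of 8 hepatocyte genes, *Alb* among them, were between 48713 and 127780 CPM in the 24 libraries, so hepatocyte RNA was abundant in all. Whole liver was sequenced, and more cells of a type and more RNA per cell cannot be told apart.

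The promoters of the mitotic genes carried the shared elements more often than promoters at large. Start sites with 250 bases before and 50 bases after them were available from RefSeq (GRCm38.p6) for 37 of the 44 genes, in 39 windows, and *Ccna2*, *Cdc25c*, *Foxm1*, *Aurkb*, *Incenp*, *Tpx2* and *Kif20a* had no entry. The CHR hexamer TTTGAA was present on either strand in 28 of the 39 windows (71.8%) against 17.9% of all 32851 windows, and CCAAT in 30 (76.9%) against 37.4%. Within 100 bases before and 30 bases after the start, the shares were 56.4% against 7.38% for TTTGAA and 71.8% against 22% for CCAAT. The promoters of 6 genes are shown from 250 bases before to 30 bases after the start, read along the gene, with the hexamer TTTGAA in capitals, and the CCAAT box also, which reads ATTGG where it lies on the other strand. *Ccnb2*, *Cdk1* and *Cdc20* hold both elements close to the start, *Mki67* holds them further upstream, and *Cdc25b* and *Plk4* lack the hexamer.
Ccnb2, chr9:70421525-70421804, minus strand: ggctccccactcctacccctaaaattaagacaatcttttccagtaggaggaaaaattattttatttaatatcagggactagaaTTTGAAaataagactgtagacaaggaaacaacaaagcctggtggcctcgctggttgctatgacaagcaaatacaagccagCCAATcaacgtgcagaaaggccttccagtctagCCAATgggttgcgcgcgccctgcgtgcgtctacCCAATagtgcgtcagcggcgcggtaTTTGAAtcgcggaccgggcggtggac
Cdk1, chr10:69352883-69353162, minus strand: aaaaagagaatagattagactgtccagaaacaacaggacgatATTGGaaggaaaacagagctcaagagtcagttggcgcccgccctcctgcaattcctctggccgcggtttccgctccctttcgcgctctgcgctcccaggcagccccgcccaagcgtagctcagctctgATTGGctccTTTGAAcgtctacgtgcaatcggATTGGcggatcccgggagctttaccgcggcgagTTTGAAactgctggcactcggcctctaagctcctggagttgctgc
Cdc20, chr4:118437314-118437593, minus strand: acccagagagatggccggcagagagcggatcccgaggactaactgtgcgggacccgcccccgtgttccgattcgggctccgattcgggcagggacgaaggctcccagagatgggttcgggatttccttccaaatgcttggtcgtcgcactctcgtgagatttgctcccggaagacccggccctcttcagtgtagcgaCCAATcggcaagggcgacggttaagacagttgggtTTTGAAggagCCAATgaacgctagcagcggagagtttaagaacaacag
Mki67, chr7:135716350-135716629, minus strand: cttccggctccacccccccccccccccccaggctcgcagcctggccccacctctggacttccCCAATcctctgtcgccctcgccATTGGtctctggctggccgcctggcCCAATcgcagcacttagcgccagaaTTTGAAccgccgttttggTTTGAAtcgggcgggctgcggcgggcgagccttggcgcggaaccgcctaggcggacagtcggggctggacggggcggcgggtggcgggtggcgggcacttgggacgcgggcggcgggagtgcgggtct
Cdc25b, chr2:131186698-131186977, plus strand: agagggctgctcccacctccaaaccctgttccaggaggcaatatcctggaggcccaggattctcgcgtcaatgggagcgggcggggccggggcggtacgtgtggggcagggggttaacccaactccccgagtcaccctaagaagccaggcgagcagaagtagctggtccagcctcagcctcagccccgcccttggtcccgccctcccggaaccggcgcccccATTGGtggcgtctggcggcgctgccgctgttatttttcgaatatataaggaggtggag
Plk4, chr3:40799701-40799980, plus strand: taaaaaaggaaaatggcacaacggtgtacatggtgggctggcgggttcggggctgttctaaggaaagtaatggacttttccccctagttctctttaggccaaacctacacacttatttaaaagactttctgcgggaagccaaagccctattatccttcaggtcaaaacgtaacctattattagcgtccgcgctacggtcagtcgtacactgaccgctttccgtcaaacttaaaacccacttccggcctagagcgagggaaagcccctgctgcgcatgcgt

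In *Ccnb2* the hexamer nearest the start began 4 bases after it, in *Cdk1* 15 bases before it and in *Cdc20* 18 bases before it. In *Mki67* the nearest began 98 bases before the start, while *Plk4* held neither TTTGAA nor CCAAT and *Cdc25b* held CCAAT alone. The variant TTTAAA was present in 10 windows of mitotic genes (25.6%) against 13.2% of all windows, and at least 1 of the CHR forms in 32 (82.1%) against 27.6%. E2F-type letters (TTGGCGC or TTCCCGC) were in 6 windows of mitotic genes (15.4%), in 10 of 18 windows of S phase genes (55.6%) and in 6.81% of all windows. S phase genes had TTTGAA in 2 of 18 windows (11.1%), while 63 further G2/M and mitosis genes had it in 30 of 56 (53.6%). The forkhead core TGTTTAC was in 2 windows of mitotic genes (5.13%) against 3.65% of all. These are matches of letters in a fixed window and not measured binding.

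**Figure D1:**
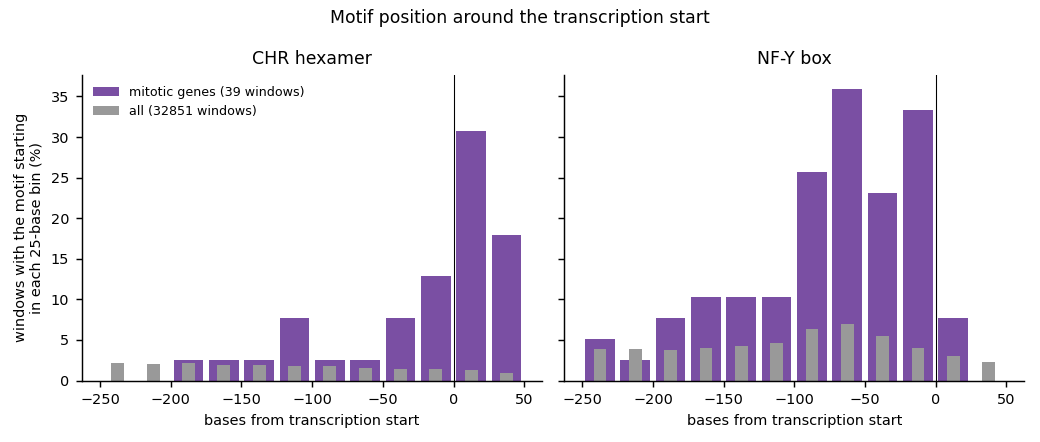
Share of promoter windows (vertical axis, %) in which a motif began in each 25-base bin around the transcription start (horizontal axis, bases), for TTTGAA on the left and CCAAT on the right, with 39 windows of mitotic genes in purple and all 32851 windows in grey. The hexamer was concentrated in the mitotic genes in the bin just after the start (30.8% against 1.31%), and CCAAT in the bases before it.

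After APAP most of the mitotic genes followed a single wave. Few were called as changed at 12 and 24 h, nearly all rose by 48 h, and their levels were highest at 72 h and far lower again by 96 h. The summed level of the 44 genes was 29.4 to 43.8 CPM in the 4 control mice at 0 h and 28.3, 46.7, 408, 779.9 and 62.3 CPM in the control pools at 12, 24, 48, 72 and 96 h. In the LKO mice it was 38.5 to 65.9 CPM at 0 h, and the LKO pools were at 33.1, 37.96, 311, 626 and 80.3 CPM at the same times. At 48 and 72 h all 44 genes were above all 4 mice of their own genotype at 0 h in both pools, where 34.2% and 32.9% of the 13855 genes kept were so in control and 29.4% and 28.4% in LKO. In control pools 43 genes were highest at 72 h and 1, *Incenp*, at 48 h, and in LKO pools all 44 were highest at 72 h.

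For each time, the 2 pools were compared with the 8 mice of the cohort at 0 h in 1 fit with a genotype term, so a genotype difference that varies with time counts as error. The 5 comparisons share the same 0 h mice. Calls required both an adjusted p under 0.05 (edgeR, quasi-likelihood test, adjusted over all genes tested) and a change of at least 1.5-fold. At 48 h 43 of the 44 genes rose and 0 fell, where 9.89% of all genes tested rose and 6.52% fell, and their median log2 change was 3.79 against 0.00 over all genes. At 72 h all 44 rose, where 11% of all genes rose and 5.77% fell, with a median of 4.65 against -0.03. *Cdc25b*, a phosphatase that activates CDK1, was the gene that missed the call at 48 h, at 0.84 ± 0.42 (SE; adjusted p = 0.177). From 24 h to 48 h 32 genes rose and 0 fell, where 0.743% of all genes were called, 0.65% higher and 0.0938% lower. From 72 h to 96 h 41 fell and 0 rose, where 2.18% of all genes fell and 0.0289% rose. Against 0 h, 1 gene, *Top2a*, was still called at 96 h, where 0.332% of all genes rose.

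**Figure D2:**
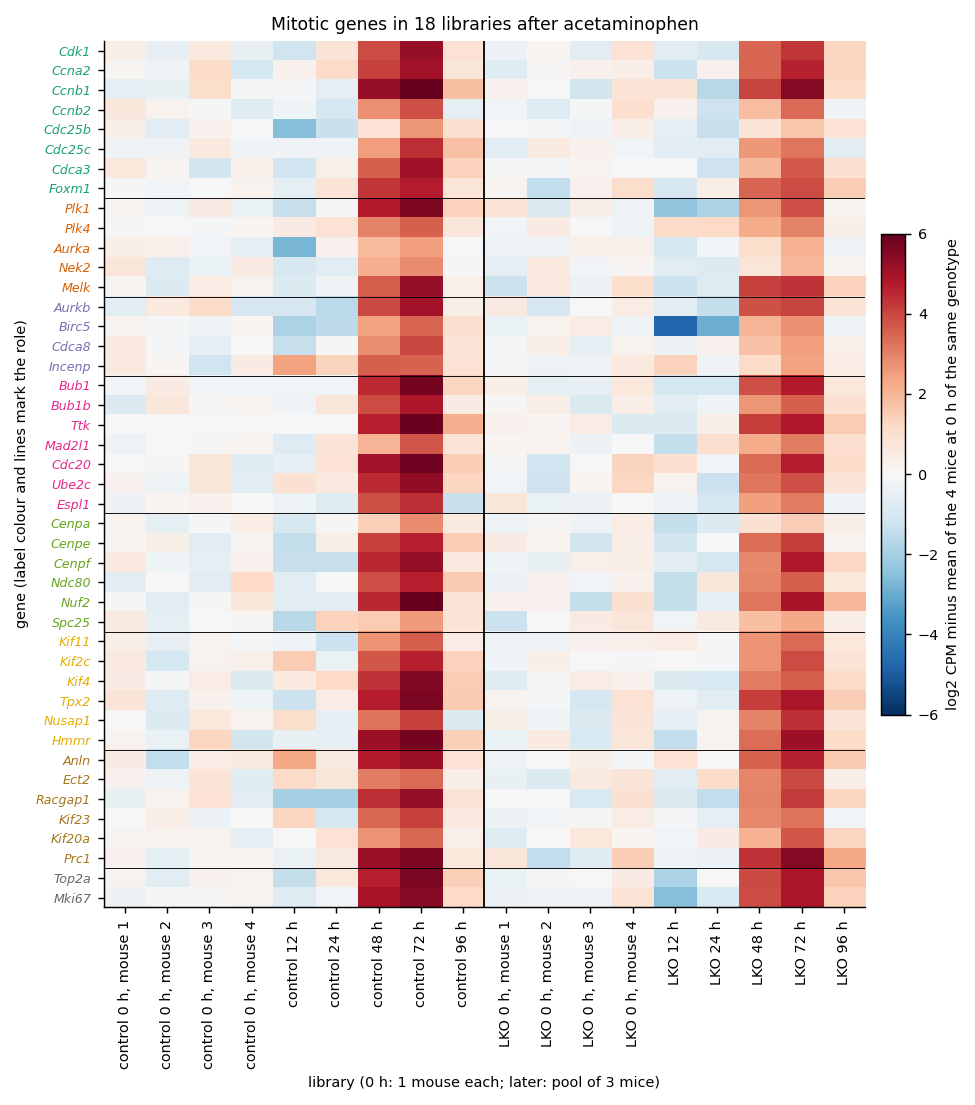
Level of the 44 mitotic genes (rows, grouped and coloured by role) in the 18 libraries of the LKO cohort (columns), as log2 CPM minus the mean of the 4 mice at 0 h of the same genotype; red is higher and blue lower, with the scale ending at 6 and -6. The 48 h and 72 h pools of both genotypes are red in every row, while the 12 h and 24 h pools are pale or blue in most.

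Few of the genes were called in the first 24 h. At 12 h 3 genes rose and 8 fell, where 31% of all genes were called, 16.7% higher and 14.3% lower, and at 24 h 2 rose and 4 fell, where 13.9% rose and 11.7% fell. Without the control pool of 24 h 2 rose and 1 fell at 24 h, and with the reads counted on 1 strand 2 rose and 2 fell. In the control pool of 24 h 14 genes were above all 4 mice at 0 h and 9 below, where 34.6% and 30.8% of the genes kept were. In the LKO pool 4 were above and 18 below, where 32.4% and 29.6% were. The 3 that rose at 12 h were *Anln* (1.84 ± 0.50 (SE; adjusted p = 0.00983)), *Incenp* (1.83 ± 0.42 (SE; adjusted p = 0.00352)) and *Plk4* (0.97 ± 0.33 (SE; adjusted p = 0.0312)). *Birc5*, which encodes survivin of the chromosomal passenger complex, was at 2.42, 1.93, 1.68 and 2.22 CPM in control mice at 0 h and at 0.455, 0.606, 11.4, 24.5 and 4.11 CPM in the control pools in order of time. In LKO mice *Birc5* was at 2.41, 3.76, 4.44 and 2.53 CPM at 0 h and at 0, 0.311, 13.3, 22.2 and 2.63 CPM in the pools. Both pools at 12 and at 24 h lay below all 8 mice at 0 h, and the fitted fall was -3.53 ± 0.65 (SE; adjusted p = 0.000708) at 12 h and -2.55 ± 0.56 (SE; adjusted p = 0.00327) at 24 h. *Alas2*, an erythroid gene, fell as well, with a log2 change of -1.07 at 12 h and -1.85 at 24 h. The globin genes *Hba-a1*, *Hba-a2* and *Hbb-b1* were at 0 in all libraries, and the part of erythroid cells in the fall of *Birc5* was not tested.

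*Cenpe*, a kinesin of the kinetochore, fell at 12 h by 2.77 on the log2 scale (adjusted p = 0.0347). It was at 0 counts in the control pool and at 1 read in the LKO pool at 12 h, so the size of this fall rests on a single read. *Plk1* was at 0 counts in both 12 h pools, which puts it at least 4.16-fold below 0 h against a floor of 3 counts over both pools (its fitted fall is no bound). The other genes that fell at 12 h were *Top2a*, *Mki67*, *Aurka*, *Cenpa* and *Mad2l1*, by between 1.16 and 2.04 on the log2 scale. At 24 h *Aurkb*, *Birc5* and *Cdc25b* had the largest falls among the genes called and *Ccnb2* was the other gene that fell (-1.48 ± 0.54 (SE; adjusted p = 0.0496)). *Aurkb* was at 0 CPM in the control pool and at 0.0518 CPM, a single read, in the LKO pool at 24 h, and its fitted change was -3.30 ± 1.11 (SE; adjusted p = 0.0344). *Plk4* (1.12 ± 0.32 (SE; adjusted p = 0.0152)), the kinase that starts centriole duplication, and *Mad2l1* (0.94 ± 0.24 (SE; adjusted p = 0.00836)), a checkpoint protein, rose at 24 h. At 12 h 7 genes, and at 24 h 2, were at 0 counts in both pools, and with these set at their bounds the median log2 change of the 44 genes was -0.77 at 12 h and -0.19 at 24 h, in place of -0.96 and -0.34.

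**Figure D3:**
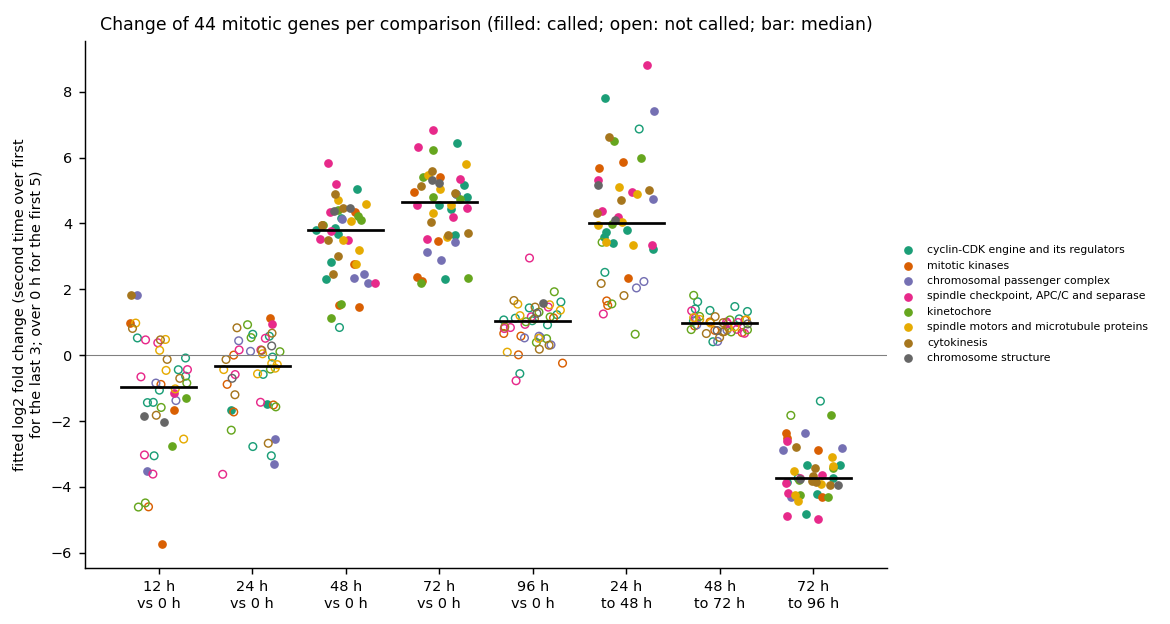
Fitted log2 fold change (vertical axis) of the 44 mitotic genes in 8 comparisons (horizontal axis): 5 times against 0 h, then 24 h to 48 h, 48 h to 72 h and 72 h to 96 h. Each point is a gene coloured by role, filled where it was called and open where it was not, and bars are medians, from -0.96 at 12 h to 4.65 at 72 h and -3.73 from 72 h to 96 h.

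The cyclin-CDK engine and its regulators comprise *Cdk1*, *Ccna2*, *Ccnb1*, *Ccnb2*, *Cdc25b*, *Cdc25c*, *Cdca3* and *Foxm1*. Of these 8, 7 rose at 48 h and 8 at 72 h, with median log2 changes of 3.75 and 4.68. *Cdk1* (chr10:69335146-69352938), the kinase of mitotic entry whose promoter is shown above, was at 1.42, 0.716, 1.68 and 0.739 CPM in the control mice and at 0.390, 1.94, 17.9, 44.4 and 2.05 CPM in the control pools at 12, 24, 48, 72 and 96 h. *Cdk1* in LKO was at 1.03, 1.47, 0.807 and 2.58 CPM in the mice and at 0.821, 0.622, 16.2, 28.5 and 3.51 CPM in the pools. The 48 h and 72 h pools stood well above every mouse in both genotypes, and the 72 h change was 4.79 ± 0.36 (SE; adjusted p = 1.13e-07). *Ccnb1* (chr13:100778650-100786570) encodes cyclin B1, the partner of CDK1. Its control values were 0.0590, 0.0716, 0.421 and 0.123 CPM at 0 h and 0.130, 0.0606, 9.72, 24.7 and 0.779 CPM in the pools, and its LKO values 0.344, 0.272, 0.0576 and 0.550 CPM and 0.528, 0, 6.22, 17.6 and 0.713 CPM. From a level of a few reads, it had 1 of the 3 largest rises at 48 h (5.05 ± 0.46), at 72 h (6.45 ± 0.44 (SE; adjusted p = 4.42e-08)) and from 24 h to 48 h (7.82 ± 0.98).

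*Ccna2* (chr3:36564865-36572150) encodes cyclin A2, which acts in S phase and G2. It was at 0.590, 0.430, 1.26 and 0.185 CPM in control mice and 0.650, 1.27, 10.8, 20.7 and 0.921 CPM in control pools, and at 0.413, 0.817, 0.922 and 1.04 CPM in LKO mice and 0.235, 0.932, 9.84, 21.8 and 2.03 CPM in LKO pools. The control pool at 24 h, at 1.27 CPM, was level with the highest control mouse, and only the 48 h and 72 h pools lay far above. *Foxm1* (chr6:128362967-128376146), the forkhead factor that drives mitotic genes, was at 0.236, 0.215, 0.253 and 0.308 CPM in control mice and 0.130, 0.545, 7.24, 9.49 and 0.496 CPM in the pools. *Foxm1* in LKO was at 0.413, 0.0544, 0.461 and 0.880 CPM in the mice and 0.117, 0.518, 5.37, 7.27 and 1.21 CPM in the pools. It had reached 76.3% of its 72 h level by 48 h in control and 73.9% in LKO, above the medians of 52.4% and 52.5% over the 44 genes. *Cdc25b* had the smallest rise of the engine at 48 h and at 72 h, and its control pools were at 0.0650, 0.303, 1.82, 6.68 and 1.98 CPM against 1.24, 0.573, 1.18 and 0.985 CPM in the mice. At 12 h it was at 1 read, and at 72 h it rose by 2.32 ± 0.38 (SE; adjusted p = 0.000419).

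Among the mitotic kinases, *Plk1*, *Plk4*, *Aurka*, *Nek2* and *Melk* all rose at 48 h and at 72 h, by medians of 2.77 and 3.46 on the log2 scale. *Plk1* (chr7:122159439-122169873), the Polo-like kinase of mitotic entry and spindle assembly, was at 0.236, 0.143, 0.337 and 0.123 CPM in control mice and 0, 0.182, 8.46, 15.7 and 0.708 CPM in control pools. *Plk1* in LKO was at 0.964, 0.218, 0.691 and 0.385 CPM in the mice and 0, 0.0518, 3.79, 8.90 and 0.548 CPM in the pools. Its control pool was above its LKO pool at every time from 24 h on. *Aurka*, the spindle pole kinase, and *Nek2*, a centrosome kinase, had 2 of the 3 smallest called rises at 48 h (1.51 ± 0.34 and 1.47 ± 0.36).

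The chromosomal passenger complex of *Aurkb*, *Birc5*, *Cdca8* (borealin) and *Incenp* corrects wrong attachments and then marks the site of division. All 4 rose at 48 h and at 72 h, by medians of 2.42 and 3.27. *Aurkb* (chr11:69045647-69051664), its kinase, was at 0.118, 0.430, 0.674 and 0.0615 CPM in control mice and 0.0650, 0, 5.67, 12.3 and 0.354 CPM in control pools. *Aurkb* in LKO was at 0.551, 0.109, 0.346 and 0.495 CPM in the mice and 0.176, 0.0518, 6.28, 7.61 and 0.658 CPM in the pools. It went from at most 1 read per pool at 24 h to over 5 CPM in both pools at 48 h, and this was among the 3 largest rises from 24 h to 48 h (7.42 ± 1.00 (SE; adjusted p = 0.00128)). *Incenp*, the scaffold of the complex, differed from its partners: it rose at 12 h, when *Birc5* fell, and its control pool was highest at 48 h. *Incenp* was at 1.42, 1.00, 0.337 and 1.35 CPM in control mice and 5.39, 2.48, 12.4, 12.0 and 1.77 CPM in control pools, and both pools at 12 h lay above all 8 mice.

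The spindle checkpoint, APC/C and separase group (*Bub1*, *Bub1b*, *Ttk*, *Mad2l1*, *Cdc20*, *Ube2c* and *Espl1*) rose in all 7 genes at both 48 h and 72 h, by medians of 3.78 and 4.56. *Bub1b* (chr2:118598211-118641591), which encodes the checkpoint protein BUBR1, was at 0.118, 0.573, 0.337 and 0.369 CPM in control mice and 0.260, 0.606, 6.48, 12.4 and 0.496 CPM in control pools. *Bub1b* in LKO was at 0.551, 0.708, 0.230 and 0.715 CPM in the mice and 0.293, 0.414, 3.85, 7.61 and 1.10 CPM in the pools. *Cdc20* (chr4:118432901-118437352), the activator of the APC/C at anaphase, was at 0.413, 0.430, 0.758 and 0.185 CPM in control mice and 0.260, 0.848, 17.1, 30.5 and 1.35 CPM in control pools, and at 0.620, 0.218, 0.634 and 1.81 CPM in LKO mice and 1.47, 0.570, 8.20, 20.2 and 1.54 CPM in LKO pools. Per kilobase of exon it was the highest of the 44 genes at 72 h, at 16.3 CPM per kb in the control pool and 10.8 in the LKO pool. *Ttk*, the MPS1 kinase that starts the checkpoint, had the largest fitted rise at 48 h (5.82 ± 0.61) and at 72 h (6.83 ± 0.60 (SE; adjusted p = 8.92e-07)), and *Bub1*, a checkpoint kinase, was second at 48 h (5.20 ± 0.55). *Ttk* had no read in any control mouse at 0 h and was at 7.00 CPM in the control pool at 72 h, at least 137.8-fold higher against a floor of 3 counts over the 4 mice. *Bub1* was at 0 counts in both 24 h pools and was at least 38.6-fold higher at 48 h against the floor over both pools.

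The kinetochore genes *Cenpa*, *Cenpe*, *Cenpf*, *Ndc80*, *Nuf2* and *Spc25* all rose at 48 h and 72 h, by medians of 4.03 and 4.77. *Cenpa* (chr5:30666777-30674830), the histone H3 variant of centromeres, was at 3.78, 2.22, 3.03 and 4.55 CPM in control mice and 1.62, 3.51, 9.12, 24.1 and 4.82 CPM in control pools. *Cenpa* in LKO was at 3.44, 4.46, 3.51 and 5.83 CPM in the mice and 1.47, 2.33, 7.97, 12.0 and 5.43 CPM in the pools. It had the smallest called rise at 48 h (1.13 ± 0.29 (SE; adjusted p = 0.0131)) and the smallest of all 44 at 72 h (2.20 ± 0.28). *Nuf2*, a subunit of the NDC80 complex with *Ndc80* and *Spc25*, had the largest ratio of the 72 h control pool to the mean of the control mice among the 41 genes with more than 3 counts in these mice (186.8-fold, from 3 reads or fewer in each mouse at 0 h). *Spc25*, of the same complex, stood at 6.08, 2.72, 4.13 and 4.37 CPM in control mice and 1.23, 11.2, 12.0, 25.1 and 7.44 CPM in control pools, and its 72 h pool was 5.81-fold above the mice.

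The spindle motors and microtubule proteins *Kif11*, *Kif2c*, *Kif4*, *Tpx2*, *Nusap1* and *Hmmr* rose in all 6 genes at 48 h and 72 h, by medians of 3.79 and 4.82. *Kif11* (chr19:37376403-37421859), the kinesin that pushes the spindle poles apart, was at 1.48, 0.716, 1.26 and 0.985 CPM in control mice and 0.909, 0.363, 7.60, 14.5 and 1.49 CPM in control pools. *Kif11* in LKO was at 0.895, 0.926, 1.38 and 1.43 CPM in the mice and 1.58, 1.19, 8.03, 13.1 and 1.81 CPM in the pools. The *Kif11* level in the LKO pool minus the control pool was 0.73, 1.44, 0.08, -0.15 and 0.26 on the log2 scale at 12, 24, 48, 72 and 96 h.

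The cytokinesis genes *Anln*, *Ect2*, *Racgap1*, *Kif23*, *Kif20a* and *Prc1* rose in all 6 at 48 h and 72 h, by medians of 3.72 and 4.49. *Prc1* (chr7:80294450-80316259), which bundles the microtubules of the central spindle, was at 0.472, 0.215, 0.421 and 0.431 CPM in control mice and 0.260, 0.606, 17.8, 23.6 and 0.638 CPM in control pools. *Prc1* in LKO was at 0.689, 0.0544, 0.173 and 1.26 CPM in the mice and 0.293, 0.259, 9.84, 22.2 and 2.36 CPM in the pools. *Anln* (chr9:22332012-22389188), the anillin scaffold of the contractile ring, was at 0.354, 0, 0.337 and 0.369 CPM in control mice and 1.56, 0.363, 9.12, 11.6 and 0.496 CPM in control pools, and at 0.276, 0.381, 0.519 and 0.330 CPM in LKO mice and 0.762, 0.363, 5.65, 11.8 and 1.32 CPM in LKO pools. Both *Anln* pools at 12 h lay above all mice of their genotype, were lower at 24 h and were above them again at 48 h, so *Anln* was called at 12 h and 48 h but not at 24 h between them.

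*Top2a* and *Mki67* act on the chromosomes themselves, as the topoisomerase that untangles sister chromatids and as the surface protein Ki-67 that keeps chromosomes apart. *Top2a* (chr11:98992943-99024189) was at 1.06, 0.501, 1.09 and 1.05 CPM in control mice and 0.260, 1.45, 25.7, 50.001 and 2.62 CPM in control pools. *Top2a* in LKO was at 1.24, 1.52, 1.67 and 2.36 CPM in the mice and 0.352, 1.71, 27.9, 53.2 and 5.54 CPM in the pools. It fell at 12 h (-2.04 ± 0.43 (SE; adjusted p = 0.00181)), rose at 48 h (4.39 ± 0.23) and at 72 h (5.33 ± 0.23 (SE; adjusted p = 3.58e-10)), and both 96 h pools were still above all 8 mice (1.59 ± 0.27 (SE; adjusted p = 0.0174)). *Mki67* (chr7:135689784-135716361) was at 0.767, 1.07, 1.09 and 1.23 CPM in control mice and 0.585, 0.908, 35.8, 52.2 and 2.48 CPM in control pools, and at 1.52, 1.69, 1.56 and 3.57 CPM in LKO mice and 0.235, 0.984, 30.8, 62.5 and 5.26 CPM in LKO pools. At 12 h both pools lay below every mouse (-1.85 ± 0.52 (SE; adjusted p = 0.0111)), and at 72 h the change was 5.22 ± 0.29 (SE; adjusted p = 3.93e-09).

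**Figure D4:**
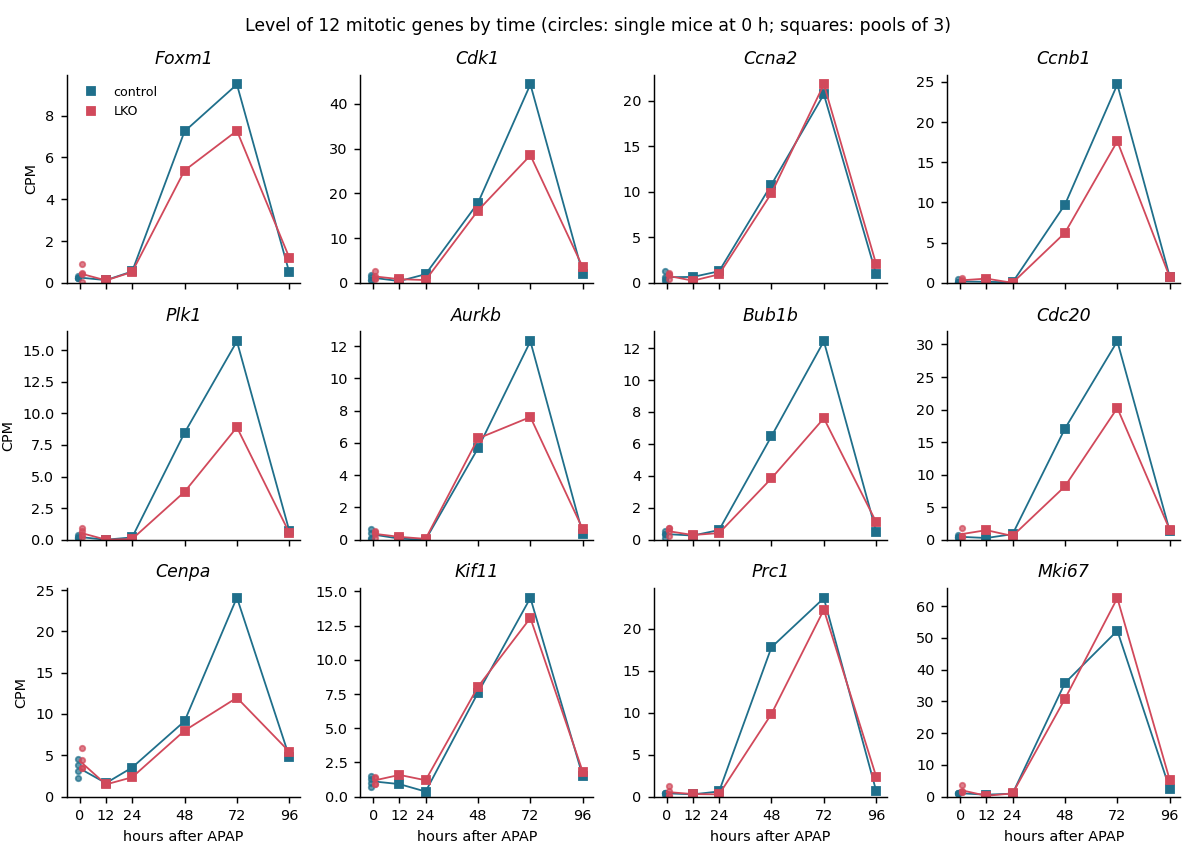
Level (vertical axes, CPM, each from 0) of 12 mitotic genes against hours after APAP (horizontal axis), with circles for single mice at 0 h, squares for pools of 3 mice, and lines from the 0 h mean through the pools, control in blue and LKO in red. All 12 peak at 72 h in both genotypes, and *Mki67* reaches 52.2 CPM in control and 62.5 CPM in LKO.

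Between neighboring times, most genes were called as higher from 24 h to 48 h and as lower from 72 h to 96 h. From 24 h to 48 h the median log2 change was 4.02 (3.97 with *Cdc25c* and *Bub1*, at 0 counts in both 24 h pools, set at their bounds). The largest fitted rises were those of *Bub1* (8.82 ± 1.29 (SE; adjusted p = 0.00370)), *Ccnb1* (7.82 ± 0.98 (SE; adjusted p = 0.00112)) and *Aurkb*. For *Bub1* the bound is a rise of at least 5.27, so the counts do not fix its place in this order. Of the 44 genes, 43 had an unadjusted p under 0.05 in this comparison, against 13% of all genes tested, and DESeq2 called 43. From 48 h to 72 h all 44 estimates were positive, with a median of 0.98, but edgeR called 0 of 44 (background 0.137% higher and 0.0144% lower), 14 (31.8%) had an unadjusted p under 0.05, against 9.17% of all genes tested, and DESeq2 called 1. *Mad2l1* was the nearest to the threshold (1.35 ± 0.30 (SE; adjusted p = 0.103)). From 72 h to 96 h the median was -3.73, and *Espl1* (-4.97 ± 0.80 (SE; adjusted p = 0.00318)), which encodes separase, *Bub1* (-4.87 ± 0.80 (SE; adjusted p = 0.00475)) and *Ccnb1* (-4.84 ± 0.68 (SE; adjusted p = 0.00155)) fell most. The 3 genes not called were *Cdc25b* (-1.40 ± 0.54 (SE; adjusted p = 0.282)), *Cdc25c* (-3.73 ± 1.13 (SE; adjusted p = 0.128)) and *Spc25* (-1.83 ± 0.53 (SE; adjusted p = 0.0996)).

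Several calls were lost when a single pool was left out. Such an omission leaves a single pool at that time, which lowers the power for genes at large. The share of all genes called under each omission is not given here. Without the control pool of 24 h the rise from 24 h to 48 h was called for 6 genes in place of 32, and without the LKO pool of 24 h for 7. Without the control pool of 96 h the fall from 72 h was called for 8 genes in place of 41, without the LKO pool of 96 h for 17 and without the control pool of 72 h for 18. At 12 h the 11 calls became 5 without the control pool, and at 24 h the 6 calls became 3 without the control pool and 0 without the LKO pool. By contrast, 37 to 43 genes were called at 48 h and 43 to 44 at 72 h whichever of the 18 libraries was left out.

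At 96 h 1 of the 44 genes was called against 0 h. In control 33 of 44 genes were above all 4 mice at 0 h, where 28.7% of the genes kept were, and in LKO 25, where 23.2% were. The fitted change was positive for 41 of 44 genes with a median of 1.03, and 17 (38.6%) had an unadjusted p under 0.05, against 15.4% of all genes tested, yet edgeR called *Top2a* alone and DESeq2 called 5. Without the LKO pool of 96 h 0 genes were called, and without the mouse LKO 4 at 0 h 2 were. As a share of its own 72 h level, the 96 h level had a median of 5.30% in control and 10.9% in LKO, and the LKO share was the larger for 39 of 44 genes and for 47.5% of all genes kept. The 48 h shares were level, with medians of 52.4% and 52.5%. With 1 pool of each genotype and time these shares have no replicate and were not tested.

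Set side by side, the pool labelled LKO was the lower at the height of the wave and the higher after it. The median difference between the LKO and the control pool over the 44 genes was 0.02, 0.00, -0.47, -0.39 and 0.26 on the log2 scale at 12, 24, 48, 72 and 96 h. At 48 h 33 genes and at 72 h 36 genes were lower in LKO, whereas at 96 h 32 were higher. Of all 13855 genes kept, 49.8% and 48.1% were lower in the LKO pool at 48 and 72 h and 50.8% were higher at 96 h. Of 20 S phase genes, 15 were higher in the LKO pool at 48 h, 4 at 72 h and 17 at 96 h. Their median differences were 0.06, -0.33 and 0.75. At the height of the wave the largest deficits in LKO were *Incenp* at 48 h (-1.43) and *Cdca8* at 72 h (-1.12). The largest excess at 96 h was that of *Espl1* (2.21), from 0 counts in the control pool to 0.439 CPM in the LKO pool. Its rank depends on the prior count added to the 0, and *Nuf2*, from 0.213 to 1.21 CPM, was next (1.99). A single genotype difference over the 5 times was then tested, with time as a block. The median differences had opposite signs at 48 and 96 h, so this does not test the pattern above. The edgeR test called 0 of 44 genes (background 0.512%), and DESeq2 called 0. An unadjusted p under 0.05 was found for 2 genes (4.55%), against 17.4% of all genes tested. Both were lower in LKO and failed the adjustment. These were *Plk1* (-0.92 ± 0.32 (SE; adjusted p = 0.197)) and *Ube2c* (-0.58 ± 0.25 (SE; adjusted p = 0.274)), the conjugating enzyme of the APC/C. *Cdk1* differed by -0.22 ± 0.32, *Mki67* by 0.15 ± 0.25 and *Top2a* by 0.33 ± 0.20, each ± its SE.

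Whether the genotype difference at 72 and 96 h differed from that at 12 to 48 h was tested in the same pools. This contrast averages 72 h and 96 h, where the median differences had opposite signs, so it does not test the lower level at 72 h against the higher level at 96 h. The edgeR test called 0 of 44 genes (background 0.154%, of which 0.0952% higher and 0.0586% lower), 24 estimates were positive with a median of 0.10, 1 (2.27%) had an unadjusted p under 0.05, against 10% of all genes tested, and DESeq2 called 0. That gene was *Kif20a* (1.05 ± 0.47 (SE; adjusted p = 0.491)), a kinesin of the central spindle, whose LKO pool minus control pool was -0.88 at 48 h and 0.71 at 96 h on the log2 scale.

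**Figure D5:**
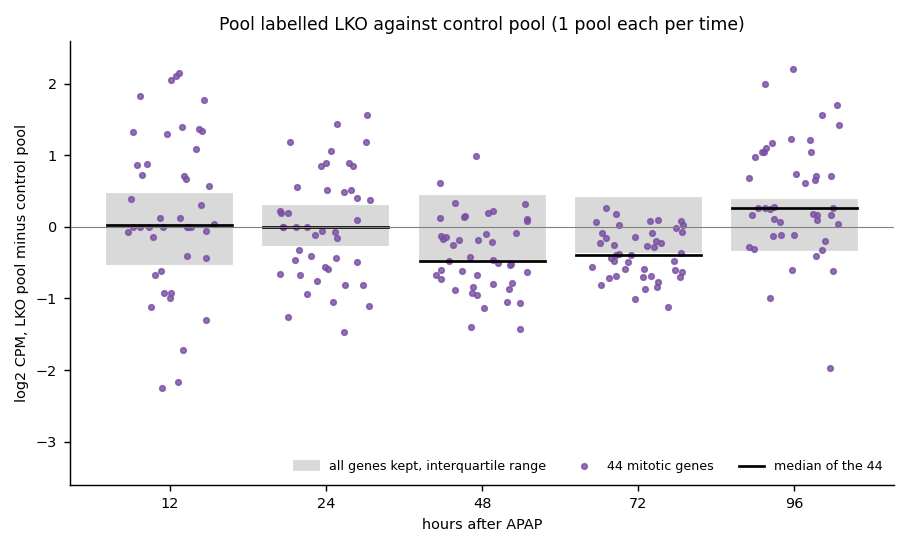
Difference between the LKO pool and the control pool in log2 CPM (vertical axis) for each of the 44 mitotic genes (purple points) at each time after APAP (horizontal axis, hours), with the median of the 44 as a black bar and the interquartile range of all 13855 genes kept as a grey box. The medians are below 0 at 48 h (-0.47) and 72 h (-0.39) and above it at 96 h (0.26), with 1 pool on each side and no test.

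Measured from each genotype's own 0 h mice, the median ratio at 72 h was larger in control, with 1 pool per genotype and no test of this difference. The ratio of the 72 h pool to the mean of the mice had a median of 35.6-fold in control, over the 41 genes with more than 3 counts at 0 h, and of 17.3-fold in LKO, over 44. The LKO mean at 0 h was itself above the control mean for 39 of 44 genes, and the same count over all genes is not given. LKO mouse 4 had the highest summed level, at 65.9 CPM against 38.5, 45.4 and 46.1 CPM in the other LKO mice. On the log2 scale the median changes from 0 h were -0.52, 0.03, 3.88, 4.76 and 0.84 in control pools and -0.63, -0.46, 2.95, 3.88 and 0.83 in LKO pools. At 24 h the summed level of the 44 genes was above all control mice in the control pool (46.7 against at most 43.8 CPM) and below all LKO mice in the LKO pool (37.96 against at least 38.5 CPM). *Spc25* alone gave 11.2 of the 46.7 CPM, and the other 43 genes summed to 35.5 CPM in this control pool, within the control mice (26.7 to 37.8 CPM), and to 32.6 CPM in the LKO pool, below the LKO mice (37.1 to 59.7 CPM).

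At 0 h most of the mitotic genes tested had a higher estimate in LKO livers, and none reached the threshold. The summed level was 43.8, 29.4, 37.8 and 35.5 CPM in the control mice and 38.5, 45.4, 46.1 and 65.9 CPM in the LKO mice, so the groups overlapped. Of the 44 genes, 23 had enough counts to be tested, and edgeR called 0 of these (background 0%), as did DESeq2. Their estimates were positive in 18, with a median of 0.39 against 0.00 over all genes tested, and 4 (17.4%) had an unadjusted p under 0.05, all higher in LKO, against 2.83% of all genes tested. These were *Incenp* (1.03 ± 0.40 (SE; adjusted p = 0.999)), *Mki67* (1.01 ± 0.36 (SE; adjusted p = 0.999)), *Top2a* (0.88 ± 0.34 (SE; adjusted p = 0.999)) and *Birc5* (0.67 ± 0.27 (SE; adjusted p = 0.999)). In 4 of 44 genes all LKO mice lay above all control mice, where 1.26% of the genes kept did so. *Mki67* was 1 of them, with a highest control mouse of 1.23 CPM and a lowest LKO mouse of 1.52 CPM. Estimates were also positive in 13 of 18 S phase genes tested, with a median of 0.34. Of the other G2/M and mitosis genes they were positive in 15 of 26 tested, with a median of 0.10.

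In HKO livers, where deletion came in adult hepatocytes, the summed level of the 44 genes overlapped with that of null livers and no gene was called. The summed level was 32.6, 33.4 and 39.0 CPM in null mice and 31.2, 37.1 and 39.4 CPM in HKO mice. The edgeR test called 0 of 17 genes tested (background 0.96%), 1 (5.88%) had an unadjusted p under 0.05, against 12.9% of all genes tested, and DESeq2 called 0. This was *Birc5*, at 4.60, 3.45 and 3.09 CPM in null mice and 2.42, 1.08 and 1.38 CPM in HKO mice. Every HKO mouse was below every null mouse, by -1.18 ± 0.35 (SE; adjusted p = 0.180). In 2 of 44 genes all HKO mice lay above all null mice and in 2 below, where 8.54% and 8.73% of the genes kept did so. Whether the effect of LKO differed from that of HKO was tested for 25 genes, and edgeR called 0 (background 0%). *Birc5* alone (4%, against 4.47% of all genes tested) had an unadjusted p under 0.05 (1.85 ± 0.44 (SE; adjusted p = 0.601)). In this comparison DESeq2 called 1 gene, whose LKO effect was above its HKO effect. *Cdk1* was at 0.552, 0.345 and 0.695 CPM in null mice and 0.484, 1.59 and 0.857 CPM in HKO mice, and *Mki67* at 0.736, 0.552 and 1.58 CPM and 0.303, 1.27 and 1.85 CPM, with overlapping groups for both.

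Genes of earlier cell cycle phases were read beside the mitotic genes. A larger share of the S phase genes was called as higher at 24 h, and this difference between lists was not tested. Of 20 S phase genes, 4 rose and 4 fell at 12 h, where 16.7% of all genes rose and 14.3% fell. At 24 h 11 of them rose and 1 fell, when 2 of the 44 mitotic genes rose and 13.9% of all genes did, with 11.7% lower. At 48 h 18 rose and at 72 h 18, where 9.89% and 11% of all genes rose. At 24 h these included *Mcm2* (2.01 ± 0.20 (SE; adjusted p = 6.83e-06)) and *Mcm5* (1.75 ± 0.41 (SE; adjusted p = 0.00507)), subunits of the replicative helicase, *Cdc6* (1.83 ± 0.49 (SE; adjusted p = 0.0114)), which loads it, and *Pcna* (1.20 ± 0.23 (SE; adjusted p = 0.00149)), the clamp of DNA polymerase. From 24 h to 48 h 1 of the 20 rose, where 0.65% of all genes did, and from 72 h to 96 h 13 fell, where 2.18% did. Of 8 genes of G1 entry and its brakes, 1 rose and 3 fell at 12 h and 2 rose and 3 fell at 24 h. At 48 h 2 of the 8 rose and at 72 h 2, where 9.89% and 11% of all genes rose. *Cdkn1a*, which encodes the CDK inhibitor p21, rose by 4.87 ± 0.82 (SE; adjusted p = 0.000333) at 12 h and 4.10 ± 0.82 (SE; adjusted p = 0.00180) at 24 h. *Ccnd1*, or cyclin D1, rose by 1.11 ± 0.38 (SE; adjusted p = 0.0366) at 24 h and 1.80 ± 0.37 (SE; adjusted p = 0.00287) at 72 h.

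Of 63 other G2/M and mitosis genes, listed from the same pathway, 7 rose and 7 fell at 12 h, where 16.7% and 14.3% of all genes did, and 10 rose and 2 fell at 24 h, where 13.9% and 11.7% did. At 48 h 52 of them rose and at 72 h 57, where 9.89% and 11% of all genes rose. From 24 h to 48 h 21 rose, where 0.65% of all genes did, and from 72 h to 96 h 32 fell, where 2.18% did. In HKO livers 1 of 24 tested was called, where 0.96% of all genes were, 0.54% lower. This was *Wee1* (-2.31 ± 0.21 (SE; adjusted p = 0.00118)), which encodes the kinase that holds CDK1 inactive. Among 17 S phase genes tested *Tk1* alone was called, and fell (-1.12 ± 0.15 (SE; adjusted p = 0.00927)). *E2f7* itself rose at 12 h (2.06, adjusted p = 0.00469), at 48 h (2.32, adjusted p = 0.00391) and at 72 h (3.47 ± 0.45 (SE; adjusted p = 3.28e-05)). It fell from 72 h to 96 h (-5.41 ± 0.85 (SE; adjusted p = 0.00287)). The control pool at 96 h held 0 counts of *E2f7*, so the size of this fall rests on very few reads.

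Summed markers of recruited macrophages and of stellate cells were highest at 72 h in both genotypes, as the mitotic genes were. Those of cholangiocytes, neutrophils and endothelial cells were not. The summed level of 8 genes of recruited macrophages and monocytes was 30.9 to 44.3 CPM in control mice at 0 h and 61.7, 79.3, 117, 572 and 186 CPM in the control pools. In LKO it was 27.1 to 59.6 CPM at 0 h and 47.0, 62.7, 125, 518 and 56.6 CPM in the pools. All 8 rose at 48 h and at 72 h, where 9.89% and 11% of all genes rose. From 72 h to 96 h 5 fell, where 2.18% of all genes did, and none was at 0 in the 72 h pools. The 6 Kupffer cell genes summed to 122 to 198 CPM at 0 h and 105, 76.1, 145, 309 and 342 CPM in the pools in control. In LKO they summed to 132 to 323 CPM at 0 h and 95.0, 115, 252, 471 and 138 CPM in the pools. Of these 6 genes 1 rose at 48 h and 2 at 72 h, where 9.89% and 11% of all genes rose. The control sum was inside its 0 h range at 48 h and highest at 96 h. The 6 stellate cell genes summed to 80.3 to 114 CPM at 0 h and 89.2, 72.9, 116, 343 and 138 CPM in the pools in control. Their sums in LKO were 60.5 to 119 CPM and 78.9, 76.3, 115, 252 and 161 CPM. Of these 6 genes 3 rose at 48 h and 4 at 72 h, where 9.89% and 11% of all genes rose. The LKO sum was inside its 0 h range at 48 h. The 5 cholangiocyte genes summed to 168, 55.9, 216, 68.2 and 21.8 CPM in control pools and 35.8, 50.8, 87.1, 44.2 and 21.8 CPM in LKO pools, and were highest at 48 h in both. The 5 neutrophil genes counted summed to 11.9, 11.2, 25.9, 20.9 and 6.09 CPM in control pools, highest at 48 h, and 10.6, 28.2, 7.07, 4.35 and 1.64 CPM in LKO pools, highest at 24 h. The 6 endothelial genes summed to 152 CPM in control and 161 CPM in LKO at 72 h, below all mice at 0 h (191 to 246 and 217 to 254 CPM). Summed hepatocyte genes at 72 h were at 127780 CPM in control and 97824 CPM in LKO. Which cells carried the mitotic RNA was not tested, and the part of these markers in the wave was not tested.

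The 44 genes varied little in shape and much in size. Over the 18 libraries of the LKO cohort, the correlation of a gene's log2 CPM with the median of the other 43 had a median of 0.947, as a description over libraries that share the 0 h mice and the same wave. *Incenp* (0.725), *Cdc25b* (0.782) and *Spc25* (0.793) were the least like the rest. In LKO *Incenp* was at 2.00, 1.63, 1.79 and 3.13 CPM in the mice and 5.57, 1.76, 4.52, 11.4 and 2.85 CPM in the pools. *Cdc25b* in LKO was at 1.10, 1.03, 0.922 and 1.54 CPM in the mice and 0.704, 0.363, 2.04, 3.88 and 2.14 CPM in the pools, and *Spc25* at 1.45, 3.70, 5.24 and 6.21 CPM and 3.28, 5.33, 13.1, 18.1 and 4.88 CPM. *Incenp* had an extra rise at 12 h, *Cdc25b* had the smallest change at 48 h, and *Spc25* was already at 11.2 CPM in the control pool at 24 h. Per kilobase of annotated exon, *Cdc20* (16.3), *Cdca3* (13.6), *Ccnb2* (11.8) and *Ube2c* (10.6) were the highest in the control pool at 72 h, in CPM per kb. This order depends on the annotated lengths. The genes lie on 16 chromosomes, 8 of them on chromosome 2. The 26 genes with TTTGAA in the promoter window had a median log2 change at 72 h of 5.11 in control and 3.85 in LKO, and the 11 without it 4.09 and 4.17, so the order of the 2 sets was not the same in the 2 genotypes.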

How the data were processed

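Total RNA from whole liver was sequenced, and per the labels the authors used Trimmomatic for trimming and STAR for alignment to mm10, and deposited raw read counts per gene. The annotation release was not given in the sources used here. Of the 3 count columns per file, the unstranded one was used, because the totals of the other 2 were close to each other, so a stranded column holds only part of the reads of each gene. Library sizes were summed over genes, without the 4 lines for unassigned reads. Gene positions and exon lengths came from GENCODE vM21 (GRCm38), and promoters from RefSeq. The exon length of a gene covers the exons of all its annotated transcripts, so it can exceed the length of a single mRNA.

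Counts were scaled by the trimmed mean of M values. Comparisons used edgeR 4.0.16 (quasi-likelihood test, genes filtered by expression, Benjamini-Hochberg adjustment over all genes tested) in R 4.3.3, with DESeq2 1.42.0 as an alternative, and the code was tested on simulated data. Levels are CPM, and log2 levels used a prior count of 2. Single pools were described, not tested. The p-values of the time comparisons measure the spread between single mice and between pools of the 2 genotypes. Those of the genotype comparisons at 0 h measure the spread between single mice. Those of the genotype comparisons after APAP measure how the difference between the pools varied over the times. Named genes were 14 representatives of the roles, the 3 largest called changes in each direction and the 3 genes least correlated with the rest. The members and lists were chosen with earlier results of these data known. Alternatives were other scalings, filters, columns and prior counts, DESeq2, and leaving out each library in turn.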

Additional observations from a re-analysis of the deposited data

Results flagged for a closer look

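At 0 h, the level of each of the 44 genes and their summed level were compared among the 4 mice of each group, and 6 of 89 sets of 4 with unequal values held a mouse whose gap to the nearest other was larger, as a part of the range, than Dixon's critical value, where chance gives about 1 in 20. *Cdc25c* was at 0.0842 CPM in control mouse 3 and at 0 in the other control mice, and *Bub1* at 0.0716 CPM in control mouse 2 and at 0 in the others, each a single read beside 3 zeros, which gives the largest ratio possible. *Anln* was at 0 CPM in control mouse 2 against 0.337 to 0.369 CPM in the others, and *Top2a* was at 0.501 CPM in the same mouse against 1.05 to 1.09 CPM. *Kif20a* was at 0.800 CPM in control mouse 4 against 1.42 to 1.43 CPM. *Mki67* was at 3.57 CPM in LKO mouse 4 against 1.52 to 1.69 CPM.

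In 3 of 220 pairs of gene and time (1.36%, against 5.39% of such pairs over all genes kept), and for the summed level once, the pools of the 2 genotypes lay on opposite sides of their own 0 h mice. These differences were not tested. *Cdk1* at 24 h was at 1.94 CPM in control, above its mice (0.716 to 1.68 CPM), and at 0.622 CPM in LKO, below its mice (0.807 to 2.58 CPM). *Kif4*, a chromosome-bound kinesin, at 12 h was at 0.195 CPM in control (0 to 0.177 CPM in the mice) and at 0.117 CPM in LKO (0.138 to 0.461 CPM in the mice), and the control pool held 3 reads, as did its highest mouse, and the LKO pool 2 reads, as did its lowest mouse. At 24 h *Kif4* was at 0.363 CPM in control and 0.104 CPM in LKO, again 2 reads, against the same mice. The summed level of the 44 genes at 24 h was 46.7 CPM in control, above its mice (29.4 to 43.8 CPM), and 37.96 CPM in LKO, below its mice (38.5 to 65.9 CPM). Without *Spc25*, the other 43 genes summed to 35.5 CPM in this control pool, within its mice (26.7 to 37.8 CPM).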

How the results depend on the processing

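The balance of rises and falls at 24 h (2 and 4) turned without the control 24 h pool (2 and 1) and was even with the stranded column (2 and 2). Most counts and medians moved by less than 1.5 times or 1 SD between mice (342 values against 26 that moved). The 342 include comparisons with 0 calls under both settings, and omissions of libraries outside the times compared. This tally is therefore no measure of stability. Under DESeq2, 1 gene was called for the LKO effect minus the HKO effect at 0 h, 5 at 96 h and 1 from 48 h to 72 h. With the stranded column 0 genes were called at 96 h, and the median log2 change was -0.29 at 12 h, 3.54 at 48 h and 4.42 at 72 h in control and 2.66 at 48 h and 3.53 at 72 h in LKO. With a prior count of 0.5 it was -0.68 at 12 h, 4.32 at 48 h and 5.26 at 72 h in control and 4.16 at 72 h in LKO, and with scaling by library size 4.16 at 48 h in control. The cause was not tested beyond the construction of each setting.

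Leaving out 1 library at a time, 5 to 13 genes were called at 12 h (5 without the control 12 h pool) and 0 to 8 at 24 h (0 without the LKO and 3 without the control 24 h pool). The 48 h comparison gave 37 to 43 genes, that of 72 h 43 to 44 and that of 96 h 0 to 2 (0 without the LKO 96 h pool, 2 without LKO mouse 4). From 24 h to 48 h the range was 6 to 34 (6 without the control and 7 without the LKO 24 h pool), and from 72 h to 96 h 8 to 42 (8 without the control 96 h, 17 without the LKO 96 h and 18 without the control 72 h pool). The median change in control at 96 h was 0.73 to 1.00 and in LKO at 24 h -0.59 to -0.20. The 0 calls of the genotype comparisons and of 48 h to 72 h were 0 in each omission. Calls present in every omission numbered 2 for 12 h, 0 for 24 h, 36 for 48 h and 43 for 72 h, with 3 from 24 h to 48 h and 6 from 72 h to 96 h.

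With the replicate number as a block, 0 genes were called for LKO, for HKO and for their difference at 0 h, as without it. Same-numbered mice deviated together with r between -0.379 and 0.223 in the LKO cohort and between -0.031 and 0.198 in the HKO cohort, so they share only a number. Depth limits low genes: 3 counts are 0.144 to 0.253 CPM, and floors cover counting error only.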
